A study of Mus musculus with 9 samples.

Results

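The genes described here are Ly6a, Ly6c1, Ly6d, Ly6e and Psca, 5 members of the Ly6 family of small surface antigens, and they were chosen by name with earlier results of these 9 libraries known. All 5 are among the 18423 genes of the deposited table and all 5 passed the filter on low values, which 11209 genes passed. Poly(A) RNA was sequenced from glands scraped from the mouse stomach corpus, in 3 libraries for each of 3 genotypes. WT glands came from wild-type mice. Ctrl glands carried Atp4bCre, a Cre recombinase under the promoter of a proton pump gene of acid-secreting parietal cells, and Rosa26NICD, an allele for the intracellular (active) domain of Notch. Arid1a_Het glands carried Atp4bCre, Rosa26NICD and Arid1aflox/+, a loxP-flanked copy of the chromatin remodeller gene Arid1a beside a normal copy, so both transgenes are shared by Ctrl and Arid1a_Het. Tumour-bearing corpus, or the equivalent site of a normal stomach, was dissected, and the age of the mice is not given in the sources used here. The series is about the dosage of Arid1a in gastric tumours.

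Ly6 proteins are secreted or held on the outer face of the cell by a glycosylphosphatidylinositol (GPI) anchor, and share a compact fold of finger-like loops pinned by disulfide bonds. Many of their mouse genes lie side by side in a cluster, and several serve as markers: Ly6a (Sca-1) for blood stem cells and some regenerating epithelia, the Ly6C antigens for monocytes and some endothelium, and Ly6d for lymphocyte precursors and stratified epithelia. Ly6e is a widely expressed member that interferon can induce. Psca, prostate stem cell antigen, is abundant in the mucous cells of the stomach surface.

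The members lie on chromosome 15 within 334.0 kb of GRCm38, from 74714839 to 75048830 in the GENCODE M21 annotation. Psca is at chr15:74714839-74717069 on the plus strand and Ly6d at chr15:74762056-74763620 on the minus strand. Ly6e is at chr15:74955051-74959905 on the plus strand, Ly6a at chr15:74994877-74998031 on the minus strand and Ly6c1 at chr15:75044018-75048830 on the minus strand. The annotation holds 18 protein-coding genes in this interval. Of the 11 that are no members and are in the table, 5 passed the filter (Them6, Slurp1, Lynx1, Ly6k and 2010109I03Rik), while Gml, Gml2, Cyp11b2 and Ly6i, for example, were at 0 FPKM in at least 1 library. Genes next to each other in this interval differed widely in level. Slurp1 and Them6 overlap on opposite strands, and whether strand was used in counting is not given in the sources used here.

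Near-identical copies limit what can be read of Ly6c1 and Ly6a. Of the distinct 50-base stretches in the annotated Ly6c1 transcripts, 32.8% also occur in a transcript of another gene, most often Ly6c2. The share was 19.0% for Ly6a, most often with Ly6c1, and 0 for Ly6d, Ly6e and Psca. The coding sequences of Ly6c1 and Ly6c2, 393 bases without the stop codon, are 97.7% identical, with 9 differing bases and an identical run of 188 bases. The first 120 bases (GENCODE M21 on GRCm38, minus strand) are shown because 6 of the 9 differences lie there. Capitals mark the bases that differ.
Ly6c1: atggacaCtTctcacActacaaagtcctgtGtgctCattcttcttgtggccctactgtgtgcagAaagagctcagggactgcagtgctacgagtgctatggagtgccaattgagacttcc
Ly6c2: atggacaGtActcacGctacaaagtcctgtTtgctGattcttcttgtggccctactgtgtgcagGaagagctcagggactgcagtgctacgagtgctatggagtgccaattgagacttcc
Counted from the A of the start codon, the first differences from Ly6c1 to Ly6c2 are C8G and T10A. How the authors treated reads that fit both genes is not given in the sources used here, so the Ly6c1 values below are uncertain for that reason as well.

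Values are FPKM (fragments normalised to transcript length and library size), listed for libraries 1, 2 and 3 of a group or as mean ± SD with n = 3 libraries. Log2 fold changes and their standard errors (SE) come from a limma fit over all tested genes, on log2(FPKM + 1) values, where the changes of low transcripts look smaller than they are. Because the members were chosen with these values known, their levels and fold changes are a description, given with no test. Whether different mice gave the 3 libraries of a genotype is not stated in the labels, so the spread and the p-values of the other genes may be partly technical. In bulk glands a lower share of a cell type and less RNA per cell cannot be told apart.

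The libraries held 22651582 to 29478481 reads, worked out from the FPKM steps. The targeted gene, Arid1a, was lowest in Arid1a_Het (7.26 ± 1.54 FPKM), against 14.8 ± 1.44 FPKM in the Ctrl libraries and 11.1 ± 2.94 FPKM in the WT libraries, but WT 2 at 7.79 lay within the Arid1a_Het range. Defining markers of the labelled tissue were present, since the 14 parietal cell genes summed to 319 FPKM or more and the 8 chief cell genes to 7315 or more in every library. Ctrl 1 and Arid1a_Het 3 held the most exocrine pancreas RNA, 3051 and 1239 FPKM over 13 genes against 331 or less in the others. Arid1a_Het 3 has an accession out of sequence with the rest, and whether it was prepared at another time is not known. Parietal cell genes summed to 2999 to 14480 FPKM in WT, 319 to 1167 in Ctrl and 490 to 5022 in Arid1a_Het, and the part of this difference in the values below was not tested.

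Psca was among the most abundant transcripts of the glands and was lowest in Ctrl. It stood at 5901, 9272 and 7291 FPKM in WT, where it ranked 5th, 5th and 6th of all genes. Ctrl libraries held 1955, 2451 and 2473 FPKM and Arid1a_Het libraries 4956, 6843 and 3982. All 3 Ctrl libraries lay below the 6 others, while the WT and Arid1a_Het ranges overlapped. Of all tested genes, 10.2% were lower in Ctrl than in WT without overlap and 2.41% higher in Arid1a_Het than in Ctrl without overlap. The ratio of means was 0.306 for Ctrl against WT (log2 fold change -1.69, SE 0.28) and 2.29 for Arid1a_Het against Ctrl (log2 fold change 1.17, SE 0.28). For Arid1a_Het against WT it was 0.702 (log2 fold change -0.52, SE 0.28). Arid1a_Het 3 was the library of its group nearest to Ctrl.

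Ly6d was higher in every transgenic library, by about an order of magnitude. WT libraries held 99.9, 89.1 and 97.4 FPKM, a tight group. The Ctrl values were 644, 904 and 1006 FPKM and the Arid1a_Het values 833, 857 and 1476. Ctrl and Arid1a_Het overlapped each other and neither overlapped WT. Of all tested genes, 33.5% were higher in Ctrl than in WT without overlap and 10.6% higher in Arid1a_Het than in WT. The share that showed both was not computed. Ctrl had 8.92 times the WT mean (log2 fold change 3.12, SE 0.25) and Arid1a_Het 11.1 times (3.40, SE 0.25). For Arid1a_Het against Ctrl the log2 fold change was 0.28 (SE 0.25), and -0.17 without Ctrl 1 and Arid1a_Het 3, the libraries with most pancreas RNA. Ly6d ranked 461st to 484th among all genes in WT libraries and 17th to 44th in the 6 others.

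Ly6e showed the same order at a smaller size. Its level was 73.7, 81.1 and 80.0 FPKM in WT, 173, 244 and 206 in Ctrl, and 167, 277 and 259 in Arid1a_Het. Both transgenic groups lay above every WT library, as 33.5% of all tested genes did in Ctrl and 10.6% in Arid1a_Het. The transgenic groups overlapped each other. The ratio to the WT mean was 2.65 in Ctrl (log2 fold change 1.38, SE 0.21) and 2.99 in Arid1a_Het (1.54, SE 0.21), and the log2 fold change of Arid1a_Het against Ctrl was 0.15 (SE 0.21), or -0.057 without Ctrl 1 and Arid1a_Het 3.

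Ly6a was a low transcript in WT and varied most among the Arid1a_Het libraries. WT held 2.86, 2.77 and 0.786 FPKM, from 80, 88 and 22 reads. Ctrl held 18.9, 24.0 and 38.7 FPKM and Arid1a_Het 11.0, 7.07 and 30.0, from 241 to 1261 reads over these 6 libraries. Both groups lay above WT, as 33.5% of all tested genes did in Ctrl and 10.6% in Arid1a_Het. They overlapped each other, with Arid1a_Het 1 and Arid1a_Het 2 below every Ctrl library and Arid1a_Het 3 within the Ctrl range. The ratio of means to WT was 12.7 for Ctrl (log2 fold change 3.19, SE 0.50) and 7.48 for Arid1a_Het (2.28, SE 0.50). Without Arid1a_Het 3 the latter log2 fold change was 1.73 (SE 0.41), and that of Arid1a_Het against Ctrl went from -0.91 (SE 0.50) to -1.46 (SE 0.41). That value was -0.49 (SE 0.49) without Arid1a_Het 2 and -0.63 (SE 0.56) without Ctrl 3.

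Ly6c1 went the other way from its neighbour Ly6a, at levels near the limit of the filter. WT held 0.719, 4.24 and 3.13 FPKM, Ctrl 0.394, 0.465 and 0.485, and Arid1a_Het 0.312, 1.56 and 0.677. These values rest on 15 to 187 reads, and an exact Poisson interval of 95% for the lowest Ctrl library runs from 0.221 to 0.651 FPKM, which covers counting error only. The Ctrl libraries lay below all of WT, although WT 1 at 0.719 lay close to them and within the Arid1a_Het range. No member was lower without overlap in Arid1a_Het against WT, where 8.57% of genes were, or in Arid1a_Het against Ctrl, where 22.2% were. The ratio of means was 0.166 for Ctrl against WT (log2 fold change -1.21, SE 0.39), 0.315 for Arid1a_Het against WT (-0.91, SE 0.39) and 1.90 for Arid1a_Het against Ctrl (0.30, SE 0.39). The filter kept genes that reached 1 FPKM in 3 or more libraries, and Ly6c1 passed with exactly 3: WT 2, WT 3 and Arid1a_Het 2. Its near copy Ly6c2 was at most 0.596 FPKM in any library and was not tested.

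**Figure D1:**
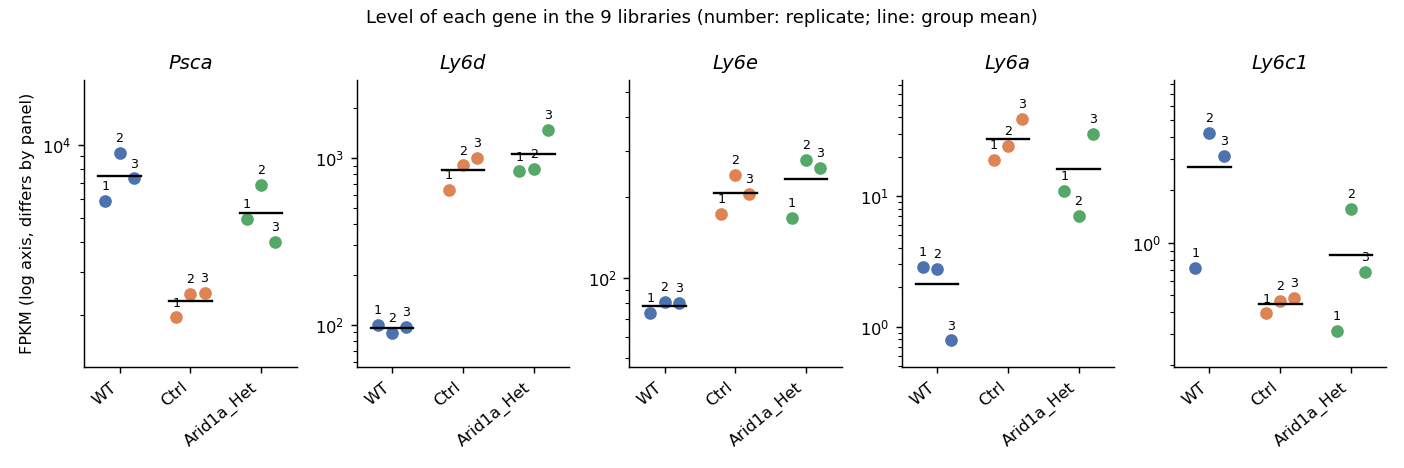
FPKM (log axis, a different range in each panel) of the 5 genes in each library of WT, Ctrl and Arid1a_Het; points are libraries with their replicate number and lines are group means. Ly6d, Ly6e and Ly6a lie higher in all 6 transgenic libraries than in WT, Psca is lowest in the 3 Ctrl libraries, and Ly6c1 is below 1.6 FPKM in all but WT 2 and WT 3.

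In order of mean FPKM, Psca was the highest member in each group, followed by Ly6d and Ly6e. FPKM divides by a length, and the values imply 745 bases for Ly6d and 3787 for Ly6e. How these lengths were set is not given in the sources used here, and the order of Ly6d and Ly6e depends on them. In reads, Ly6e (6475 or more) was above Ly6d (1745 or fewer) in every WT library. In WT the Ly6d and Ly6e means were 95.4 ± 5.65 and 78.3 ± 4.0 FPKM and in Ctrl 851 ± 187 and 208 ± 35.3. The ratio of Ly6d to Ly6e within a library was 1.10 to 1.36 in WT, 3.71 to 4.88 in Ctrl and 3.09 to 5.70 in Arid1a_Het. Ly6a and Ly6c1 did not differ beyond their spread in WT (2.14 ± 1.17 and 2.69 ± 1.80 FPKM), while in Ctrl they stood at 27.2 ± 10.3 and 0.448 ± 0.0477 and in Arid1a_Het at 16.0 ± 12.3 and 0.849 ± 0.641. The ratio of Psca to Ly6d does not change when a library is scaled by a single factor. It was 59.1 to 104 in WT, 2.46 to 3.03 in Ctrl and 2.70 to 7.99 in Arid1a_Het.

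The whole family, 35 Ly6 and uPAR domain genes in the table with the members included, made up 0.950 to 2.55% of all FPKM. Psca took 83.0 to 86.4% of the family sum in WT, 47.7 to 56.1% in Ctrl and 54.1 to 60.7% in Arid1a_Het. Ly6d took 0.817 to 1.46% in WT, 18.0 to 19.4% in Ctrl and 7.51 to 20.0% in Arid1a_Het. The second largest share in WT belonged to Lypd8, a gut mucosal member known for holding flagellated bacteria away from the epithelium, with 7.94 to 13.1%. Its share was 13.5 to 23.5% in Ctrl and 17.2 to 28.5% in Arid1a_Het, and it was above that of Ly6d in Ctrl 2, Ctrl 3, Arid1a_Het 1 and Arid1a_Het 2.

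**Figure D2:**
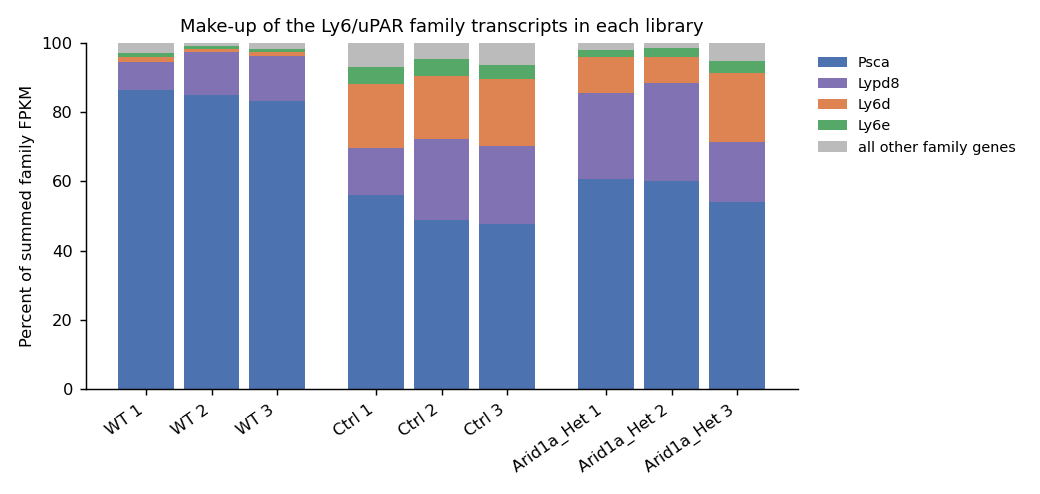
Share of the summed FPKM of 35 Ly6/uPAR family genes (percent, stacked bars) in each of the 9 libraries. Psca takes 83.0% or more in WT and 60.7% or less in every Ctrl and Arid1a_Het library, where the Ly6d share is 7.51% or more.

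In the limma fit, 4 members were past the threshold of an adjusted p of 0.05 in Ctrl against WT: Ly6a, Ly6d and Ly6e higher and Psca lower. Of all genes tested, 10.1% were past it, 7.01% higher and 3.04% lower, which is 786 and 341 genes. Median-ratio scaling gave 608 and 587 and quantile normalization 568 and 703. In Arid1a_Het against WT the 3 members Ly6a, Ly6d and Ly6e were past it, where 2.75% of all genes were, 2.06% higher and 0.687% lower. No member was past it in Arid1a_Het against Ctrl, where 0.00892% of genes were called in either direction, and at an unadjusted p of 0.05 there was 1, Psca. With voom, limma's method for counts, on the recovered reads there was none either. These counts describe the members and nothing is read from them, since the members were chosen with these comparisons known. The share of all tested genes at an unadjusted p under 0.05 was not computed, here or for the lists below. The 2 comparisons with WT share the WT libraries, and those with Ctrl the Ctrl libraries. Psca was no longer past the threshold in Ctrl against WT with quantile normalization (log2 fold change -1.21) or without a filter on low values (-1.69). Ly6c1 came past it with the replicate number as a block or without WT 1 (log2 fold changes -1.21 and -1.68). For Ly6a in Arid1a_Het against WT the call was lost in 14 of 20 alternatives, among them each of WT 1, WT 2, WT 3, Ctrl 1, Ctrl 2, Ctrl 3, Arid1a_Het 1 and Arid1a_Het 3 left out. The median log2 change of all tested genes was 0.24 in Ctrl against WT and 0.01 after median-ratio scaling, and relative to it the members stood at 2.95 (Ly6a), 2.88 (Ly6d), 1.15 (Ly6e), -1.44 (Ly6c1) and -1.93 (Psca).

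Other members of the family, from lists set by name, were measured in the same fit. The deposited values hold 13 relatives from the chromosome 15 cluster, of which 4 passed the filter. In Ctrl against WT 1 of the 4 rose, 0 fell and 3 did not pass, where 7.01% of all tested genes rose and 3.04% fell. The one that rose, 2010109I03Rik (listed by RefSeq as Ly6m), stood at 15.8 ± 6.02 against 2.88 ± 0.755 FPKM (log2 fold change 2.05, SE 0.55, limma adjusted p = 0.0477), a call lost without any one WT or Ctrl library. Ly6k, which lies between Ly6d and Ly6e, stood at 62.1 ± 18.6 against 36.4 ± 15.4 FPKM (log2 fold change 0.82, SE 0.60, limma adjusted p = 0.337) and Lynx1, a modulator of nicotinic receptors, at 11.6 ± 1.52 against 8.40 ± 0.750 (0.42, SE 0.18, limma adjusted p = 0.155). Slurp1, a secreted member of squamous epithelia, had overlapping groups and a log2 fold change of 0.25 (SE 0.65) that turned to -0.30 without Ctrl 1 and Arid1a_Het 3. The median log2 change of these 4 was 0.62, against 0.24 over all genes.

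Of 17 family genes elsewhere in the genome 11 were tested. In Ctrl against WT 1 of the 11 rose, 1 fell and 9 did not pass, where 7.01% of all tested genes rose and 3.04% fell. The median log2 change of the 11 was -0.36, against 0.24 over all genes. Plaur, the urokinase receptor, rose: its level was 6.37, 4.60 and 4.36 FPKM in WT, 47.2, 50.3 and 125 in Ctrl and 36.6, 23.8 and 76.3 in Arid1a_Het. Every transgenic library lay above every WT library, as 33.5% of all tested genes did in Ctrl and 10.6% in Arid1a_Het. Plaur passed in Ctrl against WT (log2 fold change 3.48, SE 0.45, limma adjusted p = 0.00361) and in Arid1a_Het against WT (2.78, SE 0.45, limma adjusted p = 0.0148). The second call was lost without WT 2, WT 3 or Arid1a_Het 1 (limma adjusted p = 0.0620, 0.0660 and 0.0557) or without a filter on low values (limma adjusted p = 0.0550). Cd59b, an inhibitor of complement, fell in Ctrl to 0.483 ± 0.0833 from 1.47 ± 0.300 FPKM (log2 fold change -0.73, SE 0.16, limma adjusted p = 0.0247), a call lost without Ctrl 1, Ctrl 2 or Ctrl 3 (limma adjusted p = 0.0737, 0.0820 and 0.0857). Cd59b reached 1 FPKM in the 3 WT libraries alone and was at 0.832 or less in the others. It thus entered the test through the group where it is high, so its fall is a description and nothing is read from the call. Without any 1 of the WT libraries it no longer passed the filter. Its neighbour Cd59a had a log2 fold change of -0.94 (SE 0.26, limma adjusted p = 0.0513), and these 2 share sequence. Lypd6, known as a modulator of Wnt signalling, had -1.32 (SE 0.40, limma adjusted p = 0.0643). With the replicate number as a block, Cd59a and Lypd6 fell as well (limma adjusted p = 0.0189 and 0.0140).

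The other 7 tested relatives of that list did not pass in any comparison. For Lypd8 the mean was 1014 ± 420 FPKM in WT, 938 ± 405 in Ctrl and 2182 ± 999 in Arid1a_Het (log2 fold change 1.23, SE 0.49 against Ctrl, limma adjusted p = 0.404). Cd177, an antigen best known from neutrophils, stood at 14.0 ± 6.59 FPKM in Ctrl and 3.37 ± 2.35 in Arid1a_Het (log2 fold change -1.89, SE 0.52, limma adjusted p = 0.356). Ly6g6c (log2 fold change -1.38, SE 0.49 in Ctrl against WT), Lypd3 (-0.72, SE 0.76), Lypd6b (-0.36, SE 0.26), Ly6g6d (0.51, SE 0.27) and Ly6g6e (0.12, SE 0.35) completed the list. In Arid1a_Het against Ctrl 0 of the 15 relatives tested passed in limma or with voom, and 2 of them (Cd177 and Lypd8) had an unadjusted p under 0.05. For 2010109I03Rik, Ly6k, Lynx1, Slurp1, Lypd3, Lypd6b, Lypd8, Cd177, Ly6g6d and Ly6g6e the direction of an uncalled change turned in at least 1 comparison with another scaling or with a library left out.

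**Figure D3:**
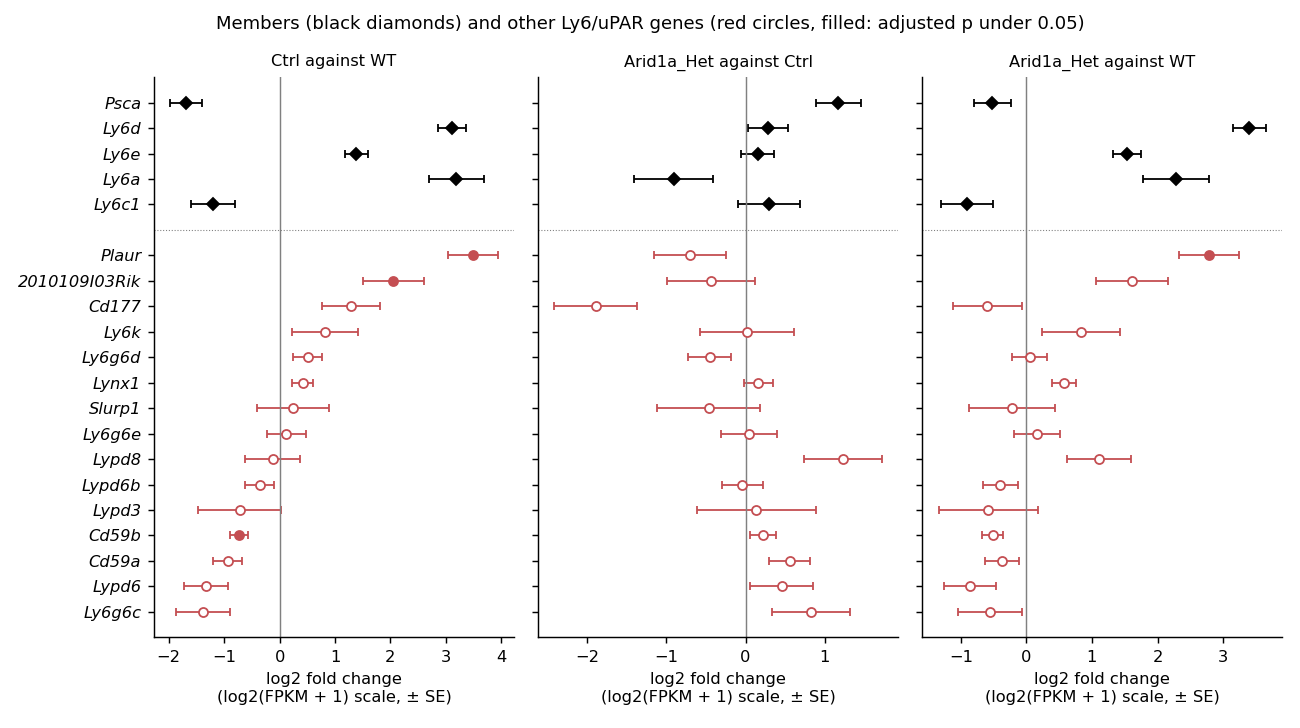
Log2 fold changes (log2(FPKM + 1) scale, bars ± SE) of the 5 members (black diamonds, a description) and 15 other Ly6/uPAR genes (red circles, filled where the adjusted p is under 0.05) in the 3 comparisons. In Ctrl against WT the 5 members run from -1.69 for Psca to 3.19 for Ly6a, and Plaur has the largest of the 20 values at 3.48.

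The enzymes that make and attach GPI anchors were measured in the same fit. Of 29 tested GPI anchor genes 1 rose and 2 fell in Ctrl against WT, a share near the 10.1% of all genes that passed, with a median log2 change of 0.14 against 0.24 over all genes. Piga, a subunit of the enzyme that starts the anchor, stood at 6.18 ± 2.85 against 1.93 ± 0.632 FPKM (log2 fold change 1.25, SE 0.33, limma adjusted p = 0.0445). Tmem246 (Pgap4), which modifies the anchor's glycan, fell to 11.3 ± 2.75 from 43.5 ± 8.88 FPKM (log2 fold change -1.85, SE 0.39, limma adjusted p = 0.0207). Tmem8 (Pgap6), the highest gene of the list, fell to 42.0 ± 1.73 from 66.2 ± 5.12 FPKM (log2 fold change -0.64, SE 0.16, limma adjusted p = 0.0351). With any 1 WT or Ctrl library or Arid1a_Het 1 left out 0 rose, and 1 fell without WT 1, Ctrl 2 or Arid1a_Het 1 and 0 without the other WT and Ctrl libraries. The summed list was 391 to 420 FPKM in Ctrl, 421 to 448 in WT and 437 to 441 in Arid1a_Het.

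Genes whose pattern was nearest to each member were found by the root mean square difference of centred log2(FPKM + 1) values over the 9 libraries. For Ly6a they were Nid1, a basement membrane protein gene (0.27), Lbp, for a lipopolysaccharide binding protein (0.34), and Tnfrsf11b, for osteoprotegerin (0.35), while Ly6a itself varied by 1.47 about its mean. Ly6d was nearest to the cell cycle inhibitor gene Cdkn2a (0.33), Ralyl (0.35) and the mast cell protease gene Mcpt2 (0.38), against 1.57 of its own. Ly6e was nearest to the immunoproteasome subunit gene Psmb10 (0.21), the small GTPase gene Rras (0.22) and the NADPH oxidase subunit gene Cyba (0.23), against 0.73. Psca was nearest to the cytochrome P450 gene Cyp2s1 (0.24), Lrrc4 (0.25) and Rep15 (0.25), against 0.75, and Ly6c1 to Peli2 (0.19), Plcl1 (0.21) and Me3 (0.21), against 0.69.

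Ly6a and Ly6e respond to interferon in many cells, and genes of that response were measured beside them. In Ctrl against WT the median log2 change of 23 tested interferon response genes was 0.68, against 0.24 over all genes. Of the 23 genes 2 rose, a share near the 7.01% of all tested genes that rose, and 0 fell, where 3.04% of all did. Those 2 were the transcription factor gene Irf1 (16.3 ± 2.22 against 6.12 ± 1.91 FPKM, log2 fold change 1.31, limma adjusted p = 0.0129) and Socs1, a feedback inhibitor (log2 fold change 0.95, limma adjusted p = 0.0320). Gbp2, an interferon-induced GTPase, had a log2 fold change of 1.27 (limma adjusted p = 0.0841), and Isg15, a ubiquitin-like modifier and the highest gene of the list, 0.98 (limma adjusted p = 0.319). In Arid1a_Het against WT Socs1 alone of the 23 passed (log2 fold change 1.03, limma adjusted p = 0.0475), and 0 passed with voom. All 23 changes were positive there, with a median log2 change of 1.03 against 0.02 over all genes. Of the 23, 15 had an unadjusted limma p under 0.05 in that comparison. The shares of all tested genes under that p or with a positive change were not computed, so these counts have no background beside them. Leaving out Ctrl 2 or Ctrl 3 left 0 that rose in Ctrl against WT, any 1 WT library or Ctrl 1 left 1, and Arid1a_Het 1 gave 3. With the replicate number as a block 7 rose. The summed list of 28 genes held 93.5, 154 and 242 FPKM in WT, 139, 408 and 293 in Ctrl and 312, 732 and 270 in Arid1a_Het. Arid1a_Het 2 had the highest sum, the highest Ly6e of all 9 libraries and the lowest Ly6a of the 6 transgenic ones. Within Ctrl the order of the sums was that of Ly6e (Ctrl 1, Ctrl 3, Ctrl 2) and not of Ly6a, and the Ctrl 1 sum lay within the WT range while its Ly6e and Ly6a lay above. The part of an interferon response in the Ly6e and Ly6a values was not tested. Gbp5, Cxcl9, Cxcl10 and Cxcl11 were below 1 FPKM in every library.

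Ly6a is also used as a marker of regenerating or fetal-like epithelium, and a list of 16 such genes was set beside it. Of all tested genes 7.01% rose in Ctrl against WT and 2.06% in Arid1a_Het against WT, with median log2 changes of 0.24 and 0.02. Of the 16 listed genes 11 rose and 0 fell in Ctrl against WT, with a median log2 change of 1.96. In Arid1a_Het against WT 10 of the 16 rose and 0 fell, with a median of 2.31. In Arid1a_Het against Ctrl 0 passed in limma or with voom, 1 had an unadjusted p under 0.05, and the median was -0.02, where Ly6a had -0.91. Anxa8, an annexin, stood at 146 ± 24.4 FPKM in Ctrl and 0.965 ± 0.681 in WT (log2 fold change 6.27, limma adjusted p = 0.000445). Il1rn, the interleukin-1 receptor antagonist (3.73), and Areg, an EGF receptor ligand (3.34), also rose (limma adjusted p = 0.00320 for each). Clu, a secreted chaperone, was the highest gene of the list. Earlier results of these data were known when the list was made, so it is no independent evidence. With single libraries left out, the count that rose in Ctrl against WT was lowest without Ctrl 3 (5), then 7 without WT 2, WT 3 or Ctrl 1, and it ran from 4 to 13 in Arid1a_Het against WT.

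Psca was set beside other surface (pit) mucous cell genes. Of 13 tested pit cell genes 1 rose and 5 fell in Ctrl against WT, where 7.01% of all tested genes rose and 3.04% fell. The median log2 change of the 13 was -0.81, against 0.24 over all genes. Capn9, a calpain of the stomach, fell to 21.3 ± 6.99 from 81.5 ± 18.1 FPKM (log2 fold change -1.91, limma adjusted p = 0.0138), and Gsta1, a glutathione transferase, fell (log2 fold change -0.72, limma adjusted p = 0.0243). Krt20, a keratin of differentiated surface cells, rose (log2 fold change 2.12, limma adjusted p = 0.0113). The summed list, led by the gastrokine gene Gkn2, was 37880 to 46290 FPKM in Ctrl, 66210 to 89780 in WT and 44610 to 79050 in Arid1a_Het. The lowest Arid1a_Het sum and the lowest Arid1a_Het value of Psca were both in Arid1a_Het 3. With single libraries left out, 0 pit cell genes fell without Ctrl 2, 1 without WT 1, WT 3 or Ctrl 3, 2 without WT 2 or Ctrl 1 and 3 without Arid1a_Het 1, and Krt20 did not pass without Ctrl 3. The part of pit cell content in the Psca values was not tested.

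Ly6d was set beside squamous epithelium, since forestomach borders the corpus. The 16 squamous genes summed to 623, 98.9 and 47.4 FPKM in WT, 292, 343 and 803 in Ctrl and 415, 244 and 1057 in Arid1a_Het. Within Ctrl the sums had the same order as Ly6d, and Arid1a_Het 3 had both the highest sum and the highest Ly6d of all libraries. WT 1 had a higher sum than Ctrl 1 and Ctrl 2 and 99.9 FPKM of Ly6d against 644 and 904 in those libraries. Of 9 tested squamous genes 2 rose in Ctrl against WT, where 7.01% of all tested genes rose. They were Sprr1a and Ivl, both of the cornified envelope (log2 fold changes 2.30 and 4.17, limma adjusted p = 0.0241 and 0.0163). The median log2 change of the 9 was 1.03, against 0.24 over all genes, and 8 of the 9 changes were positive. In Arid1a_Het against WT the median was 1.49, against 0.02 over all genes, again with 8 positive. Trp63 and Dsc3, which define the basal layer and its junctions, were below 1 FPKM in every library, as was Sprr1b. The third by p, Krt6a, a keratin of stressed squamous cells, did not pass (log2 fold change 1.94, limma adjusted p = 0.136). The count that rose was 0 without WT 2, WT 3 or Ctrl 3, 1 without Ctrl 2 and 4 without WT 1. The part of squamous cells in the Ly6d values was not tested.

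Blood, vessel and stromal cells can hold Ly6a and Ly6c1. The 19 leukocyte genes summed to 48.2, 123 and 15.3 FPKM in WT, 87.8, 105 and 65.0 in Ctrl and 24.6, 57.0 and 190 in Arid1a_Het. WT 2 had a higher leukocyte sum than any Ctrl library but 2.77 FPKM of Ly6a, and in Arid1a_Het the library with the highest sum, Arid1a_Het 3, also had the highest Ly6a. In Ctrl against WT, where 7.01% of all tested genes rose, 3 of 13 tested leukocyte genes rose and 0 fell. Those that rose were Csf3r, Itgax and Coro1a, of myeloid cells or leukocytes at large. The median log2 change of the 13 was 1.06, against 0.24 over all genes, and 11 of the 13 changes were positive. In Arid1a_Het against WT the median was 0.86, against 0.02 over all genes, with 12 of the 13 positive. The count that rose was 0 without WT 3, Ctrl 2 or Ctrl 3 and 1 without WT 1, WT 2 or Ctrl 1. Lyz2, of macrophages, was the highest gene of the list, and Cd4 and Ms4a1 were below 1 FPKM in every library. Of the plasma cell list Sdc1, which epithelia also make, was the one gene of 3 that rose, while Mzb1 and Tnfrsf17 were below 1 FPKM throughout. The list summed to 77.3 to 98.8 FPKM in WT, 189 to 229 in Ctrl and 211 to 286 in Arid1a_Het.

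The 12 endothelial genes summed to 7.60 to 19.1 FPKM in WT, 7.17 to 8.60 in Ctrl and 7.10 to 12.3 in Arid1a_Het. The defining genes Cdh5, Kdr, Tie1, Cldn5, Emcn and Vwf were below 1 FPKM in every library, and 0 of 3 tested endothelial genes passed in limma or with voom, with 2 at an unadjusted p under 0.05 (Tek and Plvap, log2 fold changes 0.87 and -1.33). With the replicate number as a block 1 rose and 1 fell. The highest endothelial sum and the highest Ly6c1 value were both in WT 2. The 7 fibroblast genes summed to 51.8, 90.0 and 8.19 FPKM in WT, 13.8, 7.70 and 18.4 in Ctrl and 3.43, 26.6 and 51.4 in Arid1a_Het. WT 2 had the highest sum and the highest Ly6c1, while WT 3 had a low sum and 3.13 FPKM of Ly6c1. The median log2 change of the 5 tested genes was -1.22 in Ctrl against WT, with 0 of 5 positive, and 0 of 5 tested genes passed in limma, with voom or at an unadjusted p of 0.05. The part of these cells in the Ly6a and Ly6c1 values was not tested.

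**Figure D4:**
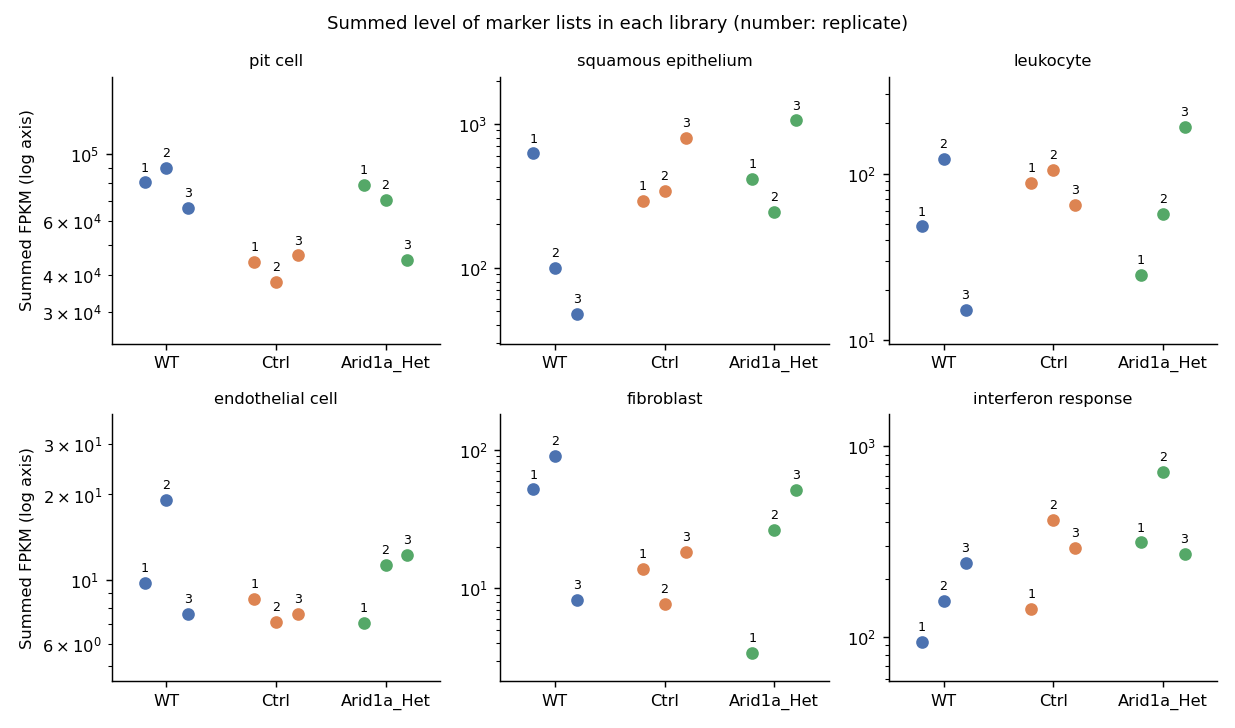
Summed FPKM (log axis, a different range in each panel) of 6 gene lists in each library of WT, Ctrl and Arid1a_Het, with replicate numbers. The pit cell sum is 37880 to 46290 in Ctrl and 66210 or more in WT, and the leukocyte, squamous and interferon sums of WT and Ctrl overlap.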

How the data were processed

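The authors deposited FPKM values for 18423 genes, one column per library. Per the labels' protocols the libraries were made with a stranded mRNA kit, and per the submitters' processing notes STAR 2.4.2a and the builds GRCm38 and mm10 were used. The tool that made the FPKM values is not given in the sources used here. All 18423 genes came out as whole reads within a tolerance of 0.001, and 99.5% of genes did exactly so on simulated data. A read count whose 9 values share a factor is understated.

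Groups come from the titles. limma 3.58.1 in R 4.3.3 (eBayes with a trend) was run on log2(FPKM + 1) of the 11209 genes that reached 1 FPKM in 3 or more libraries, in 1 fit of 9 libraries, with Benjamini-Hochberg adjustment over all genes tested. On simulated data 42% of genes changed by a log2 of 1 were recovered for Ctrl against WT. The share was 59% for Arid1a_Het against Ctrl and 63% for Arid1a_Het against WT. Each is a share of the changed genes, a small part of the 11209 genes in a single draw. The draws had the same spread, so the differences among these shares are not read as power. Unchanged genes that were called numbered 7, 10 and 10 in the same order. Members and lists were chosen with earlier results of these data known. Named were the members, every relative that passed the filter, up to 3 genes of lowest p and the highest gene of each other list, the last for lists set beside a member, and the 3 nearest patterns. Of the lists' symbols, older names were matched through RefSeq (GRCm38.p6).

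Same-numbered WT and Ctrl libraries deviated together from their group means (correlations 0.207, 0.336 and 0.138), while the labels state no pairing. The main fit was unpaired, and the replicate number was used as a block only as an alternative. In Ctrl against WT the main fit called 786 genes higher and 341 lower, and the block 1804 and 669. Arid1a_Het 2 deviated together with Ctrl 2 and WT 2 (correlations 0.467 and 0.563). Numbers 1 and 3 of Arid1a_Het did not do so with both other groups. Alternatives were other pseudocounts (0.1 and 0.01), filters, scalings, fits and single libraries left out. Python 3.11.15 was used for reads, lists and plots.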

Additional observations from a re-analysis of the deposited data

How the results depend on the processing

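Each comparison was run under 20 alternatives, 9 of which leave out 1 library. In Ctrl against WT the directions of Ly6a, Ly6d, Ly6e and Psca held in all 20 and that of Ly6c1 in the 16 that kept it past the filter, and Ly6a, Ly6d and Ly6e stayed past the threshold in all 20. In Arid1a_Het against WT Ly6d and Ly6e stayed past it in all 20. The alternatives reuse the same libraries, and the members were chosen with these comparisons known. That a member's call held is thus a description and no support for it. The cause of each change below was not tested. In Arid1a_Het against Ctrl no member passed under any alternative, Psca ran from 0.96 to 1.38 on the log2 scale, and Ly6d (-0.17) and Ly6e (-0.057) changed direction without the 2 libraries with most pancreas RNA.

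For Ctrl against WT, genes called higher numbered 497 with a minimum of 5 FPKM, 1804 with the replicate block and 429 without the 2 pancreas libraries, and genes called lower 587 with median-ratio scaling, 703 with quantile normalization, 669 with the block and 145 without those libraries. Members called lower were 0 with no filter or quantile normalization and 2 with the block. Cluster relatives called higher were 0 with no filter, median-ratio scaling, quantile normalization, voom or without the pancreas libraries. Other family genes called lower were 0 with a minimum of 5 FPKM or without the pancreas libraries, 2 with either scaling or with only the 2 groups compared, and 3 with the block. For Arid1a_Het against Ctrl, genes called higher were 1 with only the 2 groups, and genes called lower 0 with pseudocounts of 0.1 or 0.01 or voom, 2 with a minimum of 5 FPKM, quantile normalization or the block, 4 with no filter or only the 2 groups, and 7 without the pancreas libraries. For Arid1a_Het against WT, genes called higher were 95 with no filter, 89 with only the 2 groups, 445 with the block and 97 without the pancreas libraries, and genes called lower 45, 16, 246 and 17 in the same order and 44 with a minimum of 5 FPKM. Other family genes called higher were 0 with no filter.

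The block changed the calls of Ly6c1, Cd59a and Lypd6 in Ctrl against WT and no other member's or relative's, and moved the interferon and endothelial counts given above. In the other 2 comparisons same-numbered libraries did not all deviate together. The correlations were -0.151, 0.467 and -0.0202 with Ctrl, and 0.252, 0.563 and -0.279 with WT.

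With single libraries left out, Ctrl against WT gave 209 to 1068 genes higher and 42 to 405 lower, 1 to 2 members lower, 0 to 1 cluster relatives higher and 0 to 3 other family genes lower. Arid1a_Het against Ctrl gave 0 to 2 genes higher and 0 to 20 lower, the latter without Arid1a_Het 3. Arid1a_Het against WT gave 78 to 532 higher, 11 to 194 lower and 0 to 1 other family genes higher.

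Relatives that passed no test also changed direction. In Ctrl against WT Slurp1 was -0.086 and Ly6g6e -0.084 with quantile normalization, Ly6g6e -0.13 with median-ratio scaling, and Slurp1 -0.30, Lypd8 0.31 and Ly6g6e -0.073 without the pancreas libraries. In Arid1a_Het against Ctrl Lypd6b was 0.16 with median-ratio scaling, 0.074 with quantile normalization and 0.26 without the pancreas libraries, where Ly6k was -0.81, and in Arid1a_Het against WT Ly6g6d was -0.0021 with quantile normalization. With single libraries left out, Ctrl against WT ran from -0.29 to 0.48 for Ly6g6e, -1.47 to 0.33 for Lypd3, -0.53 to 0.31 for Lypd8 and -0.30 to 0.87 for Slurp1. Arid1a_Het against Ctrl ran from -1.08 to 0.18 for 2010109I03Rik, -0.082 to 0.23 for Ly6g6e, -0.68 to 0.62 for Ly6k, -0.018 to 0.25 for Lynx1, -0.15 to 0.35 for Lypd3, -0.23 to 0.13 for Lypd6b and -0.88 to 0.083 for Slurp1. Arid1a_Het against WT ran from -0.89 to 0.001 for Cd177, -0.24 to 0.27 for Ly6g6d, -0.25 to 0.52 for Ly6g6e, -1.34 to 0.47 for Lypd3 and -0.57 to 0.41 for Slurp1.

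Of the 3 genes nearest to a member in pattern, 1 was shared with a pseudocount of 0.1 for Ly6a and Ly6d and 2 for Ly6c1, Ly6e and Psca. Depth limits Ly6c1, at 15 to 187 reads a library, and Ly6a in WT, at 22 to 88.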
